A study of Arabidopsis thaliana with 4 samples.

Results

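The comparison described here is between 2 preparations of LEAFY (LFY) that both contained its cofactor UNUSUAL FLORAL ORGANS (UFO): LFY K249R with UFO, and LFY with UFO. Members were all peaks of the 2 deposited lists, 8577 for LFY K249R + UFO and 18957 for LFY + UFO, which is 27534 of the 37490 peaks in the 3 lists of the series. A peak counted as shared when its centre lay at most 200 bp from a centre of the other list. The series also has LFY K249R without UFO (9956 peaks), used below as a further reference, and input DNA, for which no list was used. An unmutated LFY preparation without UFO was not analysed here.

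In both preparations the myc-tagged LFY protein was made by in vitro transcription and translation and was combined with a recombinant complex of the adaptor ASK1 and FLAG-tagged UFO. The mixture then met genomic DNA of wild-type Col-0 Arabidopsis thaliana seedlings aged 2 weeks, per the labels. Only the LFY protein differed, which in the mutant carries the lysine-to-arginine change K249R. The assay, ampDAP-seq, sequences the amplified naked DNA that a tagged protein holds, so it includes neither chromatin nor DNA methylation, and binding is read outside the cell. The LFY K249R + UFO list kept peaks common to 2 replicates, and the LFY + UFO list kept peaks common to 3. Each list is a single merged set, so no spread between replicates could be had and no test between preparations was made. The intervals given below are exact 95% binomial intervals over peaks and cover counting error only, because peaks are not replicates. The number of replicates merged and any difference in read depth, which is unknown, cannot be told apart from the change of protein, and the lists give positions without peak heights or scores.

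LFY is a plant-specific transcription factor that switches on the floral homeotic genes when a meristem becomes a flower. Alone it binds DNA as a dimer at pseudo-palindromic sites, and its best-known targets are AP1, AP3, PI and AG. UFO belongs to the F-box proteins, which choose the substrates of SCF ubiquitin ligases, and ASK1 is the SKP1-like protein that links it to the rest of that ligase. UFO acts with LFY on the petal and stamen genes AP3 and PI in particular, and LFY and UFO together are known to bind DNA as a complex.

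With the mutant protein the list was shorter, and most of what it held was also in the LFY + UFO list. Of the 8577 peaks found with the mutant protein and UFO, 1002 (11.7%) were without a LFY + UFO partner and are called mutant-only below. Of the 18957 LFY + UFO peaks, 11378 (60.0%) had no LFY K249R + UFO partner and are called LFY + UFO-only. The remaining 7579 LFY + UFO peaks, paired with 7575 LFY K249R + UFO peaks, are called shared. The counts of shared peaks differ between the lists because 6 LFY K249R + UFO peaks were the nearest partner of 2 LFY + UFO peaks, and 2 LFY + UFO peaks were the nearest partner of 2 LFY K249R + UFO peaks. On the 5 chromosomes the mutant-only share ran from 10.4% on chromosome 5 to 12.9% on chromosome 2, and the LFY + UFO-only share from 58.9% on chromosome 2 to 61.2% on chromosome 3. The intervals of the 5 chromosomes overlapped in both lists.

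The shared and unshared classes differ in distance by definition, since the rule uses the distance between centres. Few peaks lay near the limit of 200 bp. Shared peaks had a median distance between centres of 10 bp, an upper quartile of 19 bp and a 90th percentile of 36 bp. The LFY K249R + UFO centre lay at the higher coordinate in 3617 pairs, at the lower in 3726 and at the same base in 236, so neither side was preferred by more than a small margin. Just inside the limit, at 151 to 200 bp, were 27 LFY K249R + UFO peaks and 33 LFY + UFO peaks. Just outside it, at 201 to 250 bp, were 19 LFY K249R + UFO peaks and 58 LFY + UFO peaks. Mutant-only peaks had a median distance of 2339 bp to the nearest LFY + UFO centre, and LFY + UFO-only peaks a median of 4531 bp to the nearest LFY K249R + UFO centre. The second distance is longer partly by construction, since the list searched is sparser. Some unshared peaks were near misses. At 201 to 1000 bp from the other list lay 239 mutant-only peaks (23.9%) and 1446 LFY + UFO-only peaks (12.7%). Of these, 59 and 357 lay at 201 to 400 bp.

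**Figure D1:**
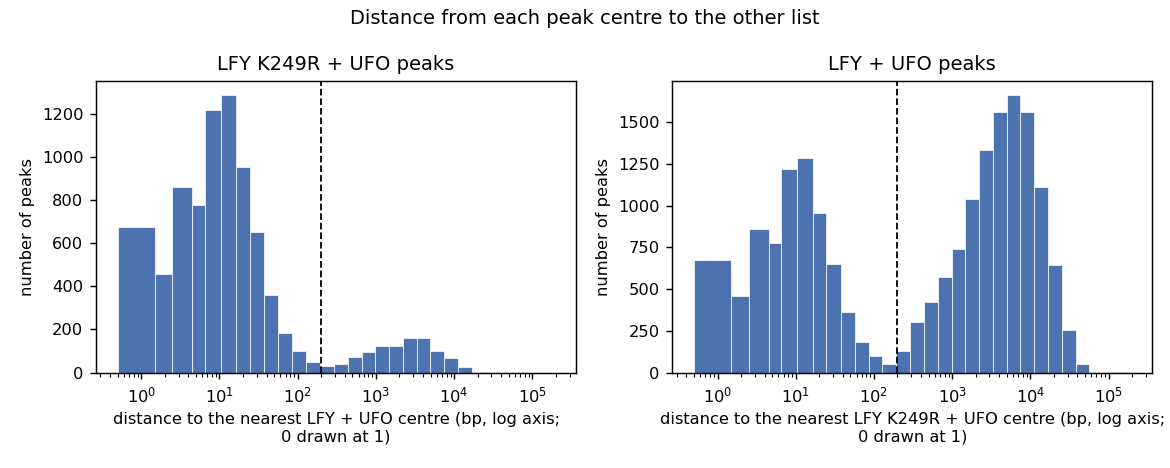
Number of peaks (vertical axis) by distance in bp from each peak centre to the nearest centre of the other list (log axis), for LFY K249R + UFO peaks on the left and LFY + UFO peaks on the right, with the 200 bp limit as a dashed line. Both panels have one group of peaks well below the limit and one above it, with few peaks near the line, and the upper group holds 1002 peaks on the left and 11378 on the right.

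The list of the mutant protein without UFO, which took no part in defining the classes, held most of the mutant-only and shared peaks and few of the LFY + UFO-only peaks. It contained 759 of the 1002 mutant-only peaks (75.7%, interval 73.0% to 78.4%), 7040 of the 7579 shared peaks (92.9%, 92.3% to 93.5%) and 1290 of the 11378 LFY + UFO-only peaks (11.3%, 10.8% to 11.9%). The 3 intervals did not overlap. Thus 243 mutant-only peaks were in no other list, and 10088 LFY + UFO-only peaks were in neither list made with the mutant protein. The preparation without UFO contains the same LFY protein as LFY K249R + UFO. Both of their lists were also merged from 2 replicates, against 3 for LFY + UFO. The protein and the number of replicates cannot be told apart here.

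The classes also differed in where they lay relative to genes. LFY + UFO-only peaks were mainly inside protein-coding genes, mutant-only peaks mainly outside them, and shared peaks in between. The centre lay inside the span of a protein-coding gene for 319 of 1002 mutant-only peaks (31.8%, 29.0% to 34.8%), for 4344 of 7579 shared peaks (57.3%, 56.2% to 58.4%) and for 7916 of 11378 LFY + UFO-only peaks (69.6%, 68.7% to 70.4%). Such spans take up 54.1% of the genome, so shared peaks were close to that share, LFY + UFO-only peaks above it and mutant-only peaks below it. The difference in this share, mutant-only minus LFY + UFO-only, was -37.7 percentage points (Newcombe interval -40.7 to -34.7). The difference of shared minus LFY + UFO-only peaks was -12.3 points (-13.7 to -10.9). For the whole lists the shares were 54.1% of LFY K249R + UFO peaks and 64.7% of LFY + UFO peaks, and the LFY K249R list without UFO had 53.8%. Exons, introns and untranslated regions were not separated, since the gene table used gives only the outer limits of each gene.

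Outside genes the order of the classes turned round. This follows largely from the shares inside genes, since the shares of a class add up to the whole. Within 1000 bp of a gene, on either side, lay 37.6% of mutant-only peaks (34.6% to 40.7%), 24.4% of shared peaks (23.4% to 25.4%) and 16.3% of LFY + UFO-only peaks (15.6% to 17.0%), against 20.4% of genome positions. The first 500 bp outside a gene alone held 24.95% of mutant-only peaks (250 peaks), 16.6% of shared peaks and 10.8% of LFY + UFO-only peaks, against 13.2% of the genome. Mutant-only peaks were thus 1.88 times as frequent there as genome positions, and LFY + UFO-only peaks 0.814 times. In the rest of the first 1000 bp these ratios were 1.77 for mutant-only and 0.767 for LFY + UFO-only peaks. Farther out, beyond 1000 and up to 3000 bp from a gene, they were 1.74 and 0.705. The excess of mutant-only peaks was therefore not limited to the first 500 bp. In the interior of genes, more than 1000 bp from both edges, the values were 12.8%, 23.9% and 30.7% for the same 3 classes, against 20.8% of the genome. Beyond 3000 bp from any gene all 3 classes were below the genome's 14.3%, with 11.2% of mutant-only, 7.72% of shared and 6.30% of LFY + UFO-only peaks. Because the gene table has no strand, the side with the transcription start could not be told from the side with the end.

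**Figure D2:**
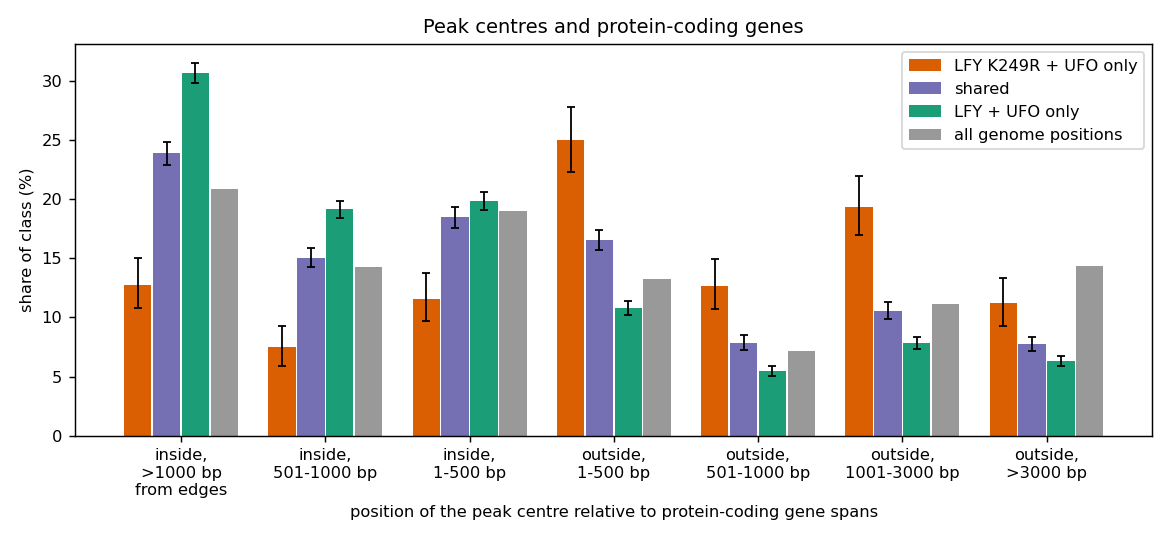
Share of each class in percent (vertical axis) by the position of the peak centre relative to protein-coding gene spans (horizontal axis), for mutant-only, shared and LFY + UFO-only peaks and for all genome positions, with exact 95% binomial intervals as error bars. Mutant-only peaks are the lowest of the 3 classes in the 3 categories inside genes and the highest in the 4 categories outside, for example 24.95% against 10.8% for LFY + UFO-only peaks in the first 500 bp outside.

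Relative to the LFY + UFO list, the LFY K249R + UFO list was shorter inside genes than outside. Inside genes there were 4641 LFY K249R + UFO peaks and 12260 LFY + UFO peaks, a ratio of 0.379. Within 1000 bp outside a gene there were 2240 and 3701 peaks of these lists, a ratio of 0.605. The LFY + UFO peaks without a partner made up 64.6% of those inside genes (63.7% to 65.4%) and 50.01% of those within 1000 bp outside (48.4% to 51.6%). The mutant-only share of the LFY K249R + UFO list ran the other way, with 6.87% inside genes (6.16% to 7.64%) and 16.8% within 1000 bp outside (15.3% to 18.4%).

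The order of the 3 classes was the same on each of the 5 chromosomes. Mutant-only peaks inside genes made up 23.7% on chromosome 4 to 36.1% on chromosome 3, shared peaks 53.5% on chromosome 2 to 59.6% on chromosome 1, and LFY + UFO-only peaks 66.2% on chromosome 2 to 71.1% on chromosome 1. On each chromosome the 3 intervals did not overlap. The order also held when each class was split by presence in the LFY K249R list. Inside genes lay 29.9% of the mutant-only peaks also found without UFO and 37.9% of those not found there. The same values were 56.8% and 64.4% for shared peaks, and 63.7% and 70.3% for LFY + UFO-only peaks.

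**Figure D3:**
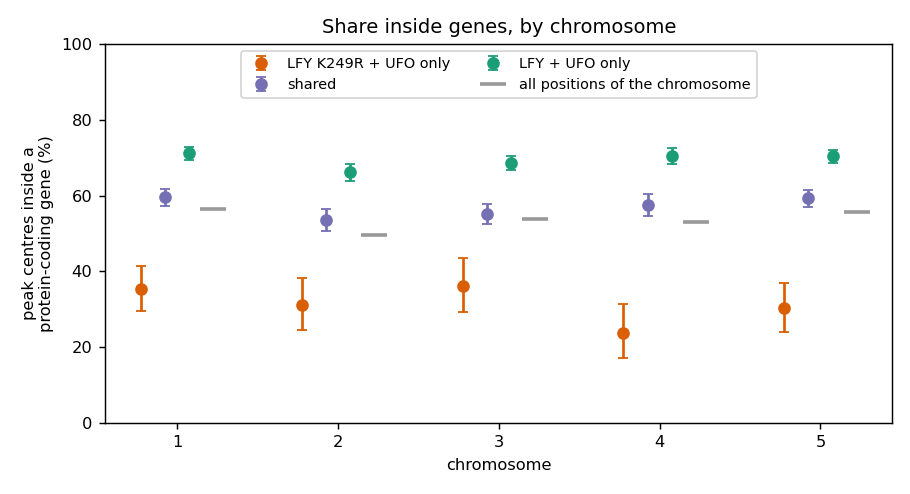
Percentage of peak centres inside a protein-coding gene (vertical axis) on each of the 5 chromosomes (horizontal axis), with points for mutant-only, shared and LFY + UFO-only peaks, exact 95% binomial intervals as bars, and a grey dash for the share of the chromosome that such genes cover. On every chromosome the LFY + UFO-only point (66.2% to 71.1%) is above the shared point and the mutant-only point (23.7% to 36.1%) is below it.

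Other kinds of gene held few peaks. Pseudogenes, which in this annotation take up 8.78% of the genome, held 3.59% of mutant-only, 4.01% of shared and 5.74% of LFY + UFO-only peaks. Genes for long non-coding RNAs held 0.699%, 1.25% and 1.70% of these classes, against 1.51% of the genome. Transfer RNA genes held 5 mutant-only, 13 shared and 8 LFY + UFO-only peaks, which was 0.499% (0.162% to 1.16%), 0.172% (0.0914% to 0.293%) and 0.0703% (0.0304% to 0.138%) of the classes, against 0.0398% of the genome. For peaks between protein-coding genes, the gap they lay in had a median width of 4168 bp for mutant-only and 3829 bp for shared peaks. For LFY + UFO-only peaks it was 4194.5 bp, so these widths differed little between classes. All were below the median of 5770 bp over all bases between genes.

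Some LFY + UFO-only peaks had a shared peak nearby. Of the LFY + UFO-only peaks, 1313 (11.5%, 11.0% to 12.1%) lay within 1000 bp of a shared peak. Among the genome positions where such a peak can lie, those more than 200 bp from every LFY K249R + UFO centre, 9.70% do so. Among shared peaks, 864 (11.4%) had another shared peak within 1000 bp. There were 721 pairs of neighbouring LFY + UFO peaks with centres under 400 bp apart. Both peaks had a LFY K249R + UFO partner in 90 pairs (12.5%), 1 of them in 331 (45.9%) and neither in 300 (41.6%). In the whole LFY + UFO list 40.0% of peaks had a partner, and the split was not compared with that expected from this share. Along the chromosomes the LFY + UFO-only peaks formed 4511 uninterrupted runs, of which 1813 were single peaks. With 60.0% of the LFY + UFO peaks in this class, runs form in any order of the peaks. Their number and lengths were not compared with those of a random order, so they do not show clustering. The longest run had 21 consecutive peaks over 125.2 kb (chr5:2157035-2282246, TAIR10), with 1 mutant-only peak inside it. The next had 17 peaks over 86.2 kb (chr5:26202889-26289060) and no LFY K249R + UFO peak.

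When peaks were assigned to genes, those with a LFY + UFO peak far outnumbered those with a LFY K249R + UFO peak. A gene was counted when a peak centre lay in its span or within 3 kb on either side. Of 27444 protein-coding genes, 13021 (47.4%) had a LFY K249R + UFO peak, 20820 (75.9%) had a LFY + UFO peak and 12620 (46.0%) had both. Only 401 genes (1.46%) had a LFY K249R + UFO peak and no LFY + UFO peak, whereas 8200 (29.9%) had a LFY + UFO peak and no LFY K249R + UFO peak. At least 1 mutant-only peak was present at 1792 genes (6.53%) and at least 1 LFY + UFO-only peak at 16029 (58.4%), and 6223 genes (22.7%) had no peak of either list. A LFY K249R + UFO peak was present at 43.9% of genes with 1 LFY + UFO peak, at 65.5% with 2, at 79.4% with 3, at 86.5% with 4 and at 92.4% with 5 or more. A rise of this kind can come from counting itself, since 40.0% of all LFY + UFO peaks had a partner and each further peak adds a chance. The count also takes in mutant-only peaks. The rise was not compared with the one that the 40.0% share would give, so its source was not tested. Neighbouring genes can share a peak in this count.

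A list of 39 genes, made of 37 regulators of flowering and flower development plus the adaptors ASK1 and ASK2, was examined gene by gene, and all 39 were matched. A LFY K249R + UFO peak was present at 32 of them (82.1%, 66.5% to 92.5%, against 47.4% of all genes), and a LFY + UFO peak at 35 (89.7%, 75.8% to 97.1%, against 75.9%). There were 4 genes (10.3%) with a LFY + UFO peak and no LFY K249R + UFO peak, against 29.9% of all genes. These were the E-class MADS-box gene SEP2, the florigen gene FT, the cytokinin response regulator ARR7 and the flowering-promoting SBP-box gene SPL5. AP2, which specifies sepals and petals, was the 1 listed gene with a LFY K249R + UFO peak and no LFY + UFO peak, against 1.46% of all genes. No peak of either list was found at 3 genes (7.69%, against 22.7% of all genes), the carpel gene SHP1, the floral repressor gene SVP and the gibberellin synthesis gene GA3OX1. At least 1 mutant-only peak was present at 4 genes (10.3%, against 6.53%) and at least 1 LFY + UFO-only peak at 22 (56.4%, against 58.4%). Summed over the list there were 53 LFY K249R + UFO peaks and 81 LFY + UFO peaks. Of these, 4 (7.55%) and 32 (39.5%) had no partner, against 11.7% and 60.0% of the whole lists. The gene counts depend on the window. With 1000 bp on either side, 20 of the 39 listed genes had a LFY K249R + UFO peak, against 7870 of all 27444 genes. A LFY + UFO peak was then present at 30 listed genes, against 14567 of all genes. Only a LFY + UFO peak was present at 10 of the 39 listed genes, against 7120 of all 27444. These last shares were close, so the contrast of 10.3% with 29.9% was not kept in this window. AP2 had no peak within 1000 bp.

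**Figure D4:**
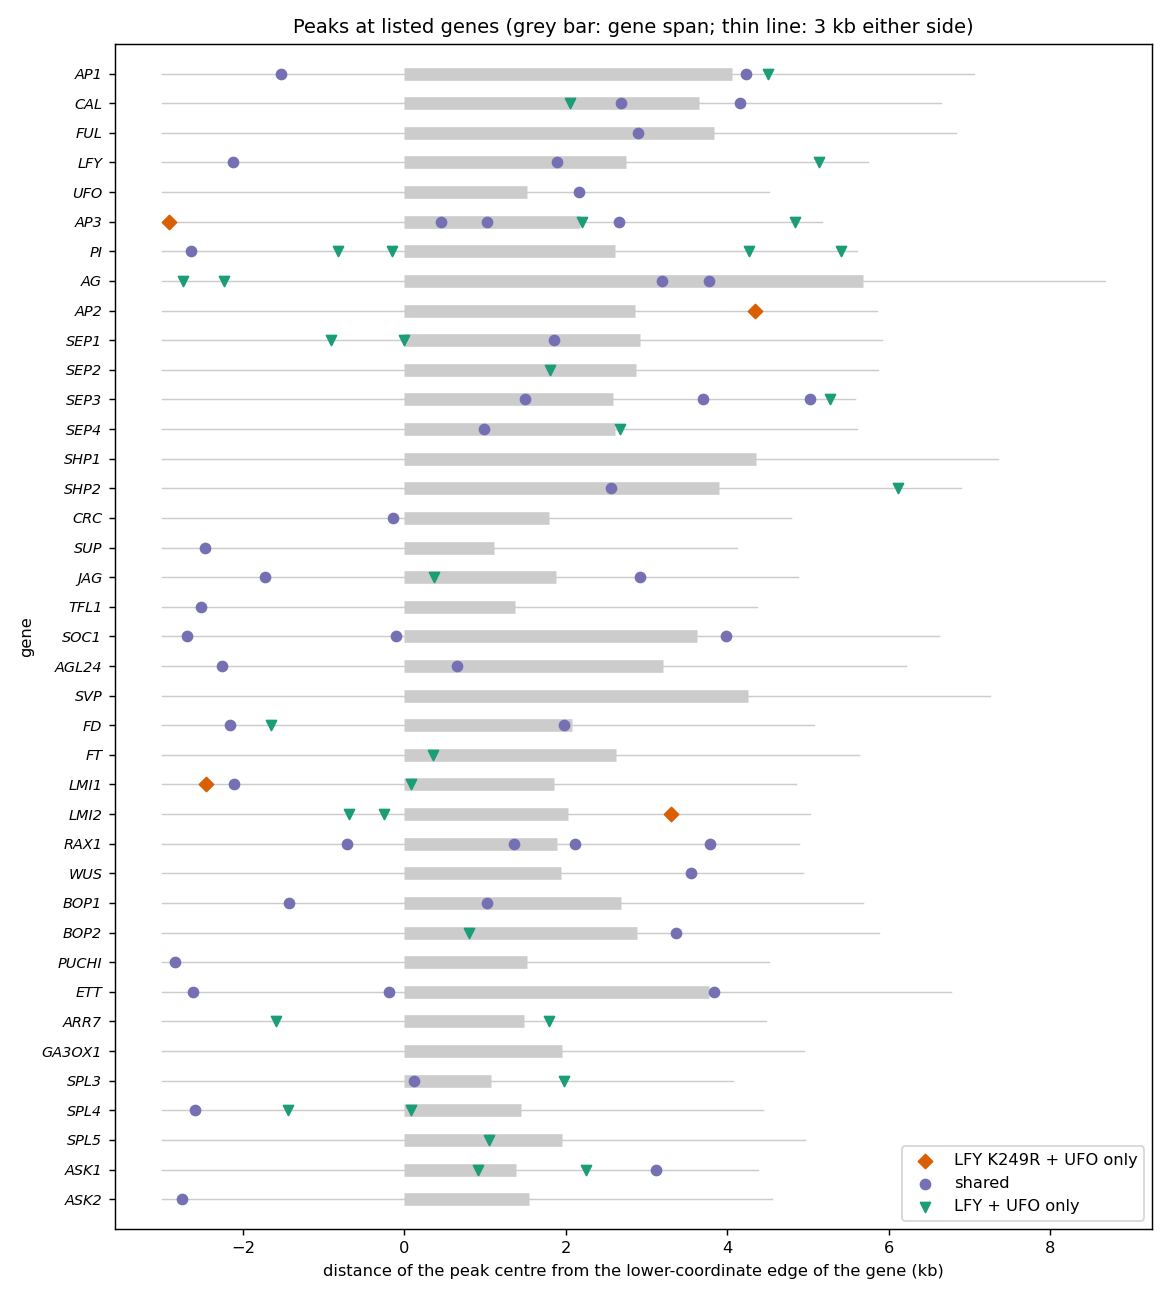
Position of each peak centre at the 39 listed genes in kb from the lower-coordinate edge of the gene (horizontal axis), 1 gene per row, with the gene span as a grey bar and 3 kb on either side as a thin line. Mutant-only peaks are diamonds (4), shared peaks circles (49, at the LFY + UFO centre) and LFY + UFO-only peaks triangles (32), and the 4 diamonds all lie more than 1 kb from the gene span.

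The B-class genes, which specify petals and stamens and are the ones UFO is best known for, had the most LFY + UFO peaks of the list. AP3 had 4 LFY K249R + UFO peaks and 5 LFY + UFO peaks, of which 3 were shared. Its LFY + UFO-only peaks were at chr3:20121140-20121539, centred 26 bp beyond the higher-coordinate edge of the gene, and at chr3:20123782-20124181, centred 2668 bp beyond it. Between them lay a shared peak, chr3:20121592-20121991 in the LFY K249R + UFO list and chr3:20121595-20121994 in the LFY + UFO list. The mutant-only peak of AP3, chr3:20116030-20116429, was centred 2910 bp from the other edge.

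PI, the partner of AP3, differed most between the lists. It had 1 LFY K249R + UFO peak, chr5:6826072-6826471, and 5 LFY + UFO peaks. Only the most distant peak on the lower-coordinate side, centred 2647 bp from the gene in the LFY + UFO list, was shared. The LFY + UFO-only peaks included chr5:6828549-6828948, centred 155 bp outside the gene, and chr5:6827888-6828287, centred 816 bp outside. The peak at 155 bp was also in the LFY K249R list, and the other 3 LFY + UFO-only peaks of PI were not.

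AG, the C-class gene of stamens and carpels, kept its peaks inside the gene. The shared peaks were chr4:10385842-10386241 and chr4:10386429-10386828 in the LFY K249R + UFO list, and the matching LFY + UFO peaks were chr4:10385844-10386243 and chr4:10386436-10386835. A large intron of AG is known to carry LFY sites that control the gene. Outside the gene, LFY + UFO-only peaks were centred 2235 and 2739 bp from the lower-coordinate edge. CRC, a carpel and nectary gene, had 1 shared peak, centred 133 bp outside the gene in the LFY K249R + UFO list and 141 bp outside in the LFY + UFO list. SUP, which limits stamen number, had 1 shared peak at 2460 and 2471 bp from the gene in the same order of lists.

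Among the A-class and meristem identity genes, AP1 had 2 LFY K249R + UFO peaks and 3 LFY + UFO peaks. The shared peak nearest to it, chr1:25986319-25986718 with LFY K249R + UFO and chr1:25986324-25986723 with LFY + UFO, was centred 170 and 175 bp outside the gene. A LFY + UFO-only peak followed at chr1:25986605-25987004, 456 bp outside. CAL, the close relative of AP1, and LFY itself showed the same counts, with 2 LFY K249R + UFO peaks and 3 LFY + UFO peaks each. For CAL the LFY + UFO-only peak was inside the gene (chr1:9101842-9102241), and for LFY it was 2394 bp outside. FUL and UFO had 1 peak in each list, and both were shared.

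The E-class SEPALLATA genes, whose MADS-box proteins join the other floral classes into complexes, differed among themselves. SEP1 had 1 LFY K249R + UFO peak and 3 LFY + UFO peaks, SEP2 0 and 1, SEP3 3 and 4, and SEP4 1 and 2. The shared peaks of SEP1, SEP3 and SEP4 nearest to the gene were inside it. The LFY + UFO-only peaks of SEP1 were chr5:5151128-5151527, centred 6 bp outside the gene, and chr5:5150222-5150621, centred 912 bp outside. That of SEP4, chr2:1131703-1132102, was centred 65 bp outside.

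How many of all protein-coding genes had only shared peaks was not counted, so the following number has no comparison. In 13 of the 39 genes every peak was shared. Besides FUL, UFO, CRC and SUP, these included RAX1, a MYB gene of axillary meristems and a known LFY target, with 4 peaks in each list. The flowering-time gene SOC1 and the auxin response factor gene ETT had 3 in each. The MADS-box gene AGL24 and BOP1, a co-activator gene of organ boundaries, had 2 in each. TFL1, which keeps the shoot meristem from becoming a flower, the stem cell gene WUS, the floral meristem gene PUCHI and ASK2 had 1 in each. LMI2, another MYB gene, had LFY K249R + UFO and LFY + UFO peaks at different places: 1 mutant-only peak centred 1282 bp beyond the higher-coordinate edge, and LFY + UFO-only peaks centred 246 and 686 bp beyond the lower one. LMI1, a homeobox gene, had a mutant-only peak at chr5:1002130-1002529 next to a shared one at chr5:1002493-1002892 in the same list, and a LFY + UFO-only peak inside the gene. The organ growth gene JAG, the bZIP gene FD, the MADS-box gene SHP2, the boundary gene BOP2 and the SBP-box gene SPL3 each had 1 LFY + UFO-only peak beside their shared ones, and SPL4 and ASK1 had 2 beside 1 shared peak. The single peaks of SEP2, FT and SPL5, all LFY + UFO-only, were inside these genes, and the LFY + UFO-only peaks of ARR7 were centred 309 and 1583 bp outside. The mutant-only peak of AP2 was chr4:17404750-17405149, centred 1481 bp outside the gene.

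At the listed genes the LFY K249R list followed the pattern of the whole. It held 4 of the 4 mutant-only, 48 of the 49 shared and 5 of the 32 LFY + UFO-only peaks. The shared peak missing from it was at CAL, centred 540 bp outside the gene with LFY K249R + UFO and 504 bp outside with LFY + UFO. The LFY + UFO-only peaks that it held were at PI, AG, LMI2 and ARR7, where both peaks were found. All 4 mutant-only peaks lay outside the span of the listed gene, by more than 1000 bp. Inside it lay 16 of 49 shared and 9 of 32 LFY + UFO-only peaks. Peaks outside a listed gene may lie inside its neighbour, so these shares are not the same measure as the share inside any gene given above.

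Beyond the list, genes with many LFY + UFO peaks and no LFY K249R + UFO peak were few. The highest number was 7, at ATBCAT-5 (AT5G65780), which encodes a branched-chain amino acid aminotransferase. A further 6 genes had 6 LFY + UFO-only peaks each: GPK1, REF6, AT4G06526, CSLD4, AT5G18880 and LINC4. REF6 encodes a histone demethylase that affects flowering time, CSLD4 a cellulose synthase-like protein, and LINC4 (also CRWN4) a protein of the nuclear lamina. The next genes by genome position, with 5 each, were AT1G05930, AT1G06510 and NDA1, out of 46 genes with 5 or more. These 10 genes held 58 peaks when summed and 52 distinct ones, since neighbours share peaks. Their median span was 3056 bp, against 2078 bp for all protein-coding genes. Among all protein-coding genes 607 had 5 or more LFY + UFO peaks, and 561 of these (92.4%) had a LFY K249R + UFO peak. The genes named here are the end of a ranking. Their number was not compared with what a list with 60.0% unshared peaks would give. On the other side, no gene without a LFY + UFO peak had more than 2 mutant-only peaks. There were 16 with 2, and the first by position were AT1G30690, AT1G30700, FANCM, AT2G15580 and AT2G17010. FANCM encodes a DNA helicase that limits meiotic crossovers.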

How the data were processed

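The deposited files are BED lists that give only the position of each peak interval, all 400 bp wide. Per the submitters' processing notes, Bowtie2, SAMtools and MACS2 were used and the build is TAIR10. Their versions, the thresholds and the use of the input are not given in the sources used here. Per the labels, only peaks common to the 2 or 3 replicates were kept, so a list also depends on how many replicates had to agree, and depth is unknown.

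Peak centres were compared between lists, and groups were taken from the labels. Gene spans came from the RefSeq table for TAIR10.1, whose nuclear chromosomes were taken to have the TAIR10 coordinates. It has no strand, so the planned upstream windows were replaced by 3 kb on either side. Genome shares run to the last listed gene or peak end of each chromosome. No genome sequence was used, so planned analyses of motifs were not made.

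Shares carry Clopper-Pearson intervals and differences Newcombe intervals. Members and gene lists were chosen with earlier results of these data known. Genes named were the whole list of 39, then the 10 genes with the most LFY + UFO-only peaks and no LFY K249R + UFO peak and the 5 genes with the most mutant-only peaks and no LFY + UFO peak, ties broken by position. Matching and gene distances were tested on simulated data. Software was statsmodels 0.14.6, scipy 1.17.1, pandas 2.3.3 and numpy 2.4.6 under Python 3.11.15, with matplotlib 3.10.9.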

Additional observations from a re-analysis of the deposited data

How the results depend on the processing

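Of 52 alternatives to 18 results, 29 stayed within the interval of the value given (or within 1.5 times a count), 23 moved and 0 changed sign. With centres at most 100 bp apart, 87.1% of LFY K249R + UFO peaks had a LFY + UFO partner, and with 50 bp 83.7%. With any overlap it was 89.0%. For LFY + UFO peaks the shares with a partner were 37.9% at 50 bp and 41.9% with any overlap. The location alternatives and the 1000 bp window were chosen after seeing the data. With classes from 100 bp, 35.0% of mutant-only peaks lay inside genes, -34.5 points from LFY + UFO-only peaks. More than 2 Mb from the longest peak-free stretches the shares inside genes were 36.0% of mutant-only, 61.1% of shared and 73.5% of LFY + UFO-only peaks. With genes of every kind they were 36.6%, 62.4% and 76.3%, and shared peaks were -13.9 points from LFY + UFO-only peaks. A window of 1000 bp left 7870 genes with a LFY K249R + UFO peak. Nearest genes alone gave 6940 genes with a LFY K249R + UFO peak and 12608 with a LFY + UFO peak. Of the 39 listed genes, 20 then had a LFY K249R + UFO peak under either setting. Of these 39, 0 had a LFY K249R + UFO peak and no LFY + UFO peak under either setting. A LFY + UFO peak and no LFY K249R + UFO peak was found at 10 (window) or 8 (nearest gene) of them. Among all 27444 protein-coding genes, 7120 (window) and 6106 (nearest gene) had this pattern. The listed genes were close to all genes in this share under both settings. Thus the 4 genes given above, and their contrast with all genes, rest on the 3 kb window. The narrower rules count fewer genes by construction. No paired analysis was possible because each preparation has a single list merged before deposit, and no replicate could be left out for the same reason. Not run for lack of sequence or strand were the motif windows and the upstream windows of 500 bp and 3 kb. A site missing from a list may lie under the calling threshold.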

Other observations

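Gene families picked by their RefSeq symbols, after the data had been examined, were near the values of all protein-coding genes in most cases, where 47.4% had a LFY K249R + UFO peak and 75.9% a LFY + UFO peak within 3 kb. Of 115 MYB genes, 59 (51.3%) had a LFY K249R + UFO peak and 91 (79.1%) a LFY + UFO peak, and of 67 WRKY genes 35 (52.2%) and 52 (77.6%) did so. Of 22 ARF genes, which encode auxin response factors, 7 (31.8%) had a LFY K249R + UFO peak and 17 (77.3%) a LFY + UFO peak. Of 14 SPL genes, 5 (35.7%) and 12 (85.7%) did so. The 16 genes named SAUR, which are small auxin-induced genes that often lie in tandem, had a peak at 12 in either case. The remaining families, IAA, ARR and TCP, had LFY K249R + UFO peaks at 10 of 24, 3 of 7 and 7 of 16 genes and LFY + UFO peaks at 16, 5 and 12 of them. These counts are small and have no test.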
